A study of Bos taurus with 6 samples.

Results

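The genes described here encode 8 glycoproteins of the extracellular matrix: the tenascins TNC, TNXB, TNN and TNR, the fasciclin-domain proteins POSTN (periostin) and TGFBI (also called beta ig-h3), fibronectin (FN1) and dermatopontin (DPT). They were picked out by gene symbol in the authors' comparison table, with earlier results of these data known, and make up 8 of the 27607 genes in it, each with 1 identifier. Messenger RNA was sequenced from cultures of bovine articular chondrocytes of the deep zone, the cartilage layer next to the bone, with 3 libraries without doxycycline (Dox-) and 3 with it (Dox+), each group numbered 1 to 3. All 6 cultures had been infected with a lentivirus that expresses bovine CREB5, a CREB-related transcription factor, when doxycycline is given. All had been selected in G418 at 500 µg/ml for 11 days and then kept for 3 days on low attachment plates in medium holding 10% FBS, 20 ng/ml TGFb2 and 100 ng/ml TGFa. Doxycycline was added only to the Dox+ cultures, at 1 µg/ml by the treatment protocol, while the series' design text gives the same figure in mg/ml. No doxycycline-treated culture without the CREB5 virus was analysed here, so the induced factor and the drug cannot be told apart. The cells came from 3 independently collected knees.

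Fibronectin is secreted as a dimer that cells assemble into fibrils through integrins, and the fibrils serve as a scaffold on which collagens and other matrix proteins are laid down. Tenascins are large oligomeric proteins built of EGF-like repeats, fibronectin type III repeats and a fibrinogen-like globe. Tenascin-C is best known from developing and injured connective tissue, where it modulates adhesion to fibronectin, and tenascin-X from loose connective tissue, skin and tendon sheath, where its loss makes collagen fibres lax. Periostin and TGFBI share repeated fasciclin (FAS1) domains, bind integrins and collagens and are typical products of cells exposed to TGF-beta. Dermatopontin is a small protein that binds decorin and fibronectin and takes part in collagen fibril assembly.

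Values are normalized counts, that is reads divided by 1 size factor per library, with mean ± SD and n = 3 per group. Where 3 values of a group are given, they are in the order of the library numbers. Fold changes between groups are those of the fit on log2 values, which differ from the ratio of the arithmetic means printed beside them. Depth ranged from 20063379 reads (Dox+ 3) to 122366790 reads (Dox+ 2), and 3 reads, the floor used here, were worth between 1.32 and 6.98 normalized counts. CREB5 itself stood between 308 and 510 in the Dox- libraries and between 12413 and 21964 in the Dox+ libraries, so each library was on the side of its label. Chondrocyte markers were present in every library: the summed level of 9 of them (among them COL2A1, ACAN and SOX9) ran from 156028 to 308780 in Dox- and from 102522 to 120393 in Dox+. The median log2 fold change of the 9 was -2.26, a larger fall than the sums show. Limma called ACAN and COL9A1 lower, and without a block edgeR called 2 and DESeq2 6 of the 9 lower. Markers of other cell types were also read, since periostin, tenascins and dermatopontin are made by many fibroblasts. Summed over 6 synovial fibroblast markers the level was 106880 to 129443 in Dox- and 71491 to 81125 in Dox+. Over 5 tendon markers the sum was 239889 to 460657 in Dox- and 165244 to 295529 in Dox+, most of it from FMOD. Of these 5 markers, TNMD and KERA were at 0 in each library, while SCX, MKX and FMOD were expressed at a mean of at least 10. Over 6 smooth muscle and pericyte markers the sum was 1625 to 6961 in Dox- and 5771 to 16923 in Dox+, most of it from DES. MYH11 averaged 1.23 in Dox- and 3.11 in Dox+ and RGS5 was also under a mean of 10, while CNN1, ACTG2 and NOTCH3 reached it. Over 6 endothelial markers the sums were 72.2 to 130 in Dox- and 55.2 to 102 in Dox+, and over 6 leukocyte markers 204 to 461 and 381 to 712. Among the latter PTPRC averaged 0.613 and 0.775, and CD163 and LYZ were also under a mean of 10, while CD68, CD14 and CSF1R reached it. Sums over 6 bone cell markers were 669 to 1888 and 303 to 1269 and over 4 erythroid genes 61116 to 107970 and 21380 to 46180, nearly all from HBA, with HBB at 0 in each Dox- library. Of the 23 tested genes in all lists of other cell types limma called 0 (7 at an unadjusted p under 0.05), edgeR called 0, and DESeq2 called 0 higher and 3 lower. Over all 13180 tested genes limma called 2.88%, or 6.51% with the block used below, and 1395 had an unadjusted p under 0.05. Once the replicate number was added as a block, limma called 2 of the 23 higher and 3 lower, and 6 of the 9 chondrocyte markers lower. What part such cells had in the results was not tested. In bulk libraries, a change in the number of cells of a type and a change in RNA per cell cannot be told apart.

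The comparison of Dox+ with Dox- cells asks what forced CREB5 expression alters in deep zone cells. In short, tenascin-X and periostin messages rose in Dox+ cells. Among 24 alternative settings of the analysis, the call was missed in 2 for TNXB and in 7 for POSTN. Dermatopontin was higher and tenascin-C lower in each Dox+ library than in any Dox- library, which passed limma when libraries of the same number were blocked together and missed its threshold when they were not. The labels do not say what the numbers mark, so that blocking rests on a pairing read from the same data. Fibronectin and TGFBI messages overlapped between the groups. The test was limma on log2(normalized count + 1), run over the 13180 genes whose mean reached 10 and adjusted over all of them by the Benjamini-Hochberg method with a threshold of 0.05. Of the 8 genes, 6 were tested, 1 (TNN) was under the filter and 1 (TNR) had no reads. Limma called 2 of the 6, TNXB and POSTN, where it called 2.88% of all tested genes (2.52% higher and 0.357% lower). With the replicate number as a block it called 4 of the 6, adding DPT and TNC, where it called 6.51% of all tested genes (4.86% higher and 1.65% lower). The groups did not overlap for those 4 genes, which was so for 15.2% of all tested genes (8.88% with Dox+ higher and 6.29% with it lower). DESeq2 on the recovered reads, unblocked, called the same 4, where it called 5.33% of the genes to which it gave an adjusted p. In the authors' deposited table, whose model no source used here states, the same 4 genes had an adjusted p under 0.05, against 7.3% of all genes with an adjusted p there.

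**Figure D1:**
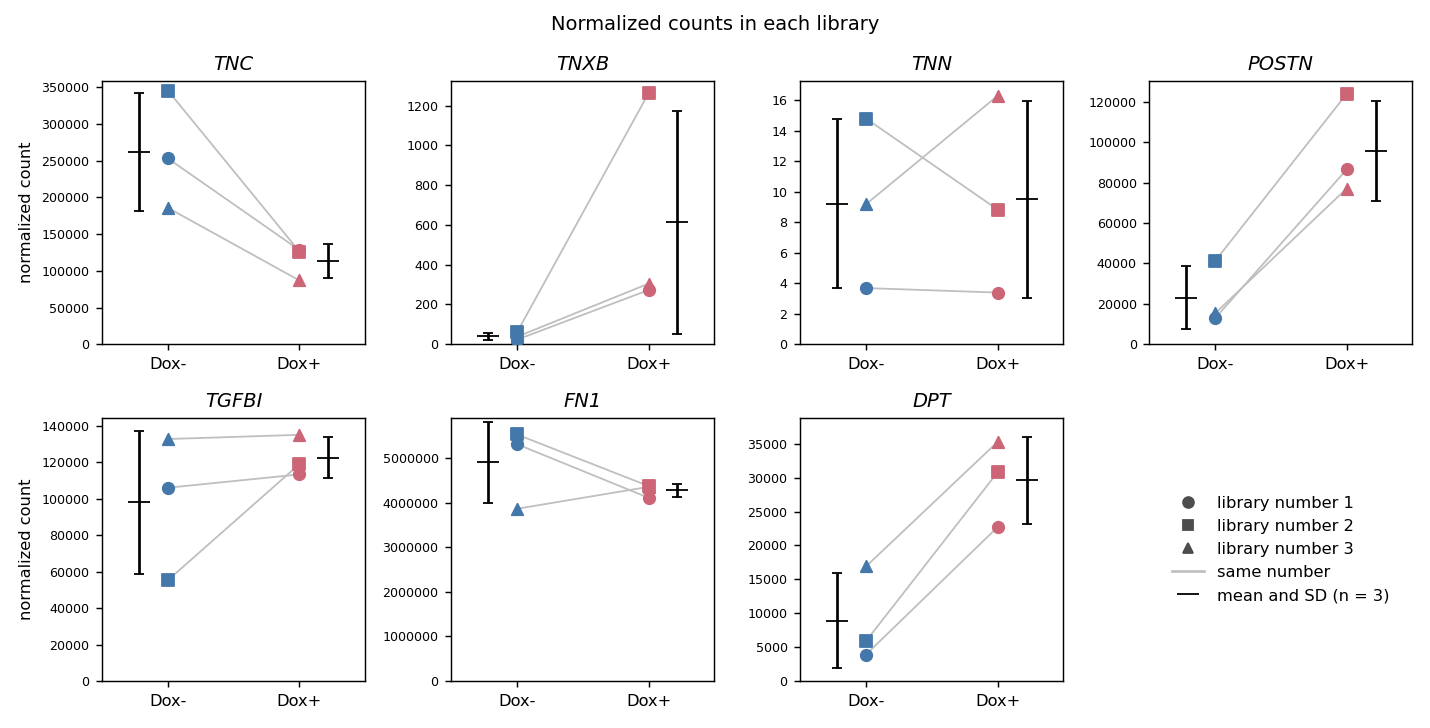
Normalized counts (vertical axes, linear, each gene on its own scale from 0) of 7 genes in the 3 Dox- and 3 Dox+ libraries. Symbols mark the library number, grey lines join libraries of the same number, and black bars give the mean and SD of each group. TNXB, POSTN and DPT were higher in every Dox+ library and TNC was lower, while TGFBI, FN1 and TNN overlapped; TNR, at 0 in each library, is not drawn.

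Tenascin-X carried the largest fold change of the family. TNXB (ENSBTAG00000001444) had 22.7, 59.2 and 37.3 normalized counts without doxycycline and 272, 1262 and 305 with it. The Dox- libraries were all low, and Dox+ 2 stood far above the other 2 Dox+ libraries, which were close to each other. The group means were 39.7 ± 18.4 and 613 ± 562, and the rise in the fit was 12.5-fold (log2 fold change 3.64 with an SE of 0.61, limma adjusted p = 0.015 unblocked and 0.00011 blocked). Same-numbered libraries differed by 11.5-fold, 21.0-fold and 7.98-fold in numbers 1, 2 and 3. Without Dox+ 2 the log2 fold change was 2.93 (limma adjusted p = 0.018), and the call was lost without Dox- 3 (adjusted p = 0.057) or without Dox+ 3 (adjusted p = 0.058). The counts behind the Dox- values were small: 37, 40 and 61 reads, with exact 95% Poisson intervals of 26.1 to 51.0, 28.6 to 54.5 and 46.7 to 78.4 reads. Those intervals, which cover counting error only, correspond to at most 80.6 normalized counts in any Dox- library, and the lowest bound in a Dox+ library was 232.

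Tenascin-C was lower in each Dox+ library. TNC (ENSBTAG00000000575) stood at 253284, 345804 and 185952 normalized counts without doxycycline and at 128300, 126305 and 86860 with it. The highest Dox+ library lay below the lowest Dox- library, and Dox+ 1 and Dox+ 2 were nearly equal. Means were 261680 ± 80256 in Dox- and 113822 ± 23371 in Dox+, 2.26-fold lower in the fit (log2 fold change -1.18, SE 0.31), and TNC did not pass without the block (limma adjusted p = 0.11). With the block it passed (adjusted p = 0.012), and it was lower by 1.97-fold, 2.74-fold and 2.14-fold in the same-numbered pairs 1, 2 and 3. TNC took between 0.348% and 0.584% of all counts in the Dox- libraries and between 0.186% and 0.250% in the Dox+ libraries, again without overlap. The authors' deposited table lists TNC at a log2 fold change of -1.12 with an adjusted p of 4.0e-07, and DESeq2 on the recovered reads without the block gave an adjusted p of 0.0013.

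The ratio of TNXB to TNC within a library hardly depends on that library's size factor. On the log2 scale of counts plus 1 it was -13.4, -12.5 and -12.2 without doxycycline and -8.87, -6.64 and -8.15 with it. The mean difference was 4.82, a 28.2-fold shift toward TNXB. It was 4.19 (18.3-fold) without Dox+ 2, the lowest with any 1 library left out, and 5.31 (39.6-fold) without Dox+ 1, the highest. An exact permutation test over the 20 assignments of the libraries gave a two-sided p of 0.1, the smallest that 3 libraries against 3 can give. Since TNXB was higher and TNC lower in every Dox+ library, that p was fixed in advance. It adds nothing to the results of the single genes. Transcript lengths were not available for a comparison of levels, so the ratio shows only how the balance moved between libraries, not how much of each protein message was present.

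The remaining tenascins were scarcely read. TNN (ENSBTAG00000015650), tenascin-W, a tenascin of bone and of tumour stroma, had 6, 10 and 15 reads without doxycycline and 2, 20 and 7 with it, or 3.68, 14.8 and 9.17 and 3.38, 8.83 and 16.3 normalized counts. The groups overlapped fully, with means of 9.21 ± 5.56 and 9.50 ± 6.47, and the mean of all libraries lay just under the filter of 10. Tested without that filter it had a log2 fold change of -0.0046 (SE 0.72, limma adjusted p = 1.0). TNR (ENSBTAG00000011706), tenascin-R, a tenascin of the nervous system, had 0 reads in each library, which allows up to 3 reads, or between 1.32 and 6.98 normalized counts.

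**Figure D2:**
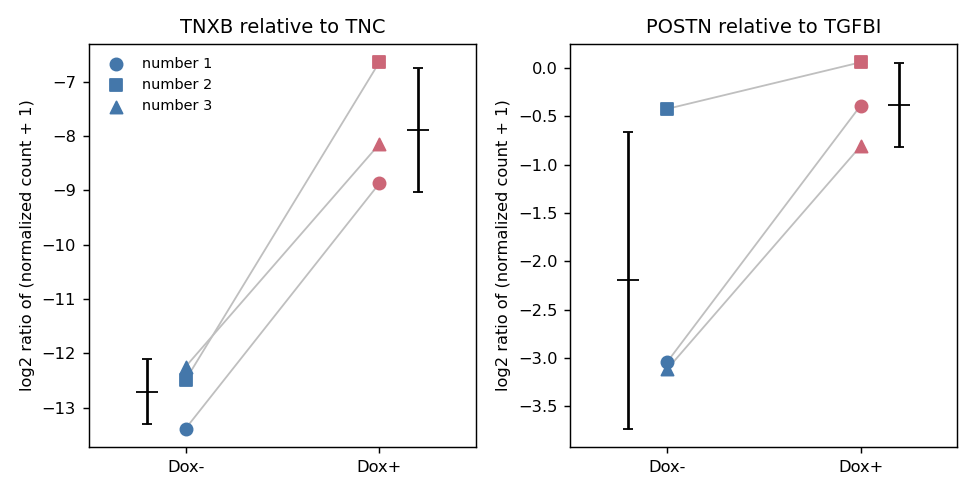
Log2 ratios within each library of TNXB to TNC (left) and of POSTN to TGFBI (right), from normalized counts plus 1, by group. Symbols mark the library number, grey lines join the same number, and black bars give mean and SD (n = 3). TNXB to TNC ran from -13.4 to -12.2 in Dox- and from -8.87 to -6.64 in Dox+, while the POSTN to TGFBI ratio of Dox- 2 (-0.42) lay within the range of the Dox+ libraries (-0.81 to 0.06).

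Periostin rose. POSTN (ENSBTAG00000012409) had 12846, 41205 and 15282 normalized counts without doxycycline and 86588, 124034 and 77135 with it. Library number 2 was the highest in both groups, and the lowest Dox+ library was above the highest Dox- library. The group means were 23111 ± 15717 and 95919 ± 24803, and the rise in the fit was 4.68-fold (log2 fold change 2.23 with an SE of 0.42, limma adjusted p = 0.024 unblocked and 0.00033 blocked), and by number it was 6.74-fold, 3.01-fold and 5.05-fold. The call without the block was not firm: edgeR on the recovered reads gave an adjusted p of 0.055, and limma gave 0.11, 0.064, 0.069 and 0.095 when Dox- 3, Dox+ 1, Dox+ 2 or Dox+ 3 in turn was left out.

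TGFBI (ENSBTAG00000009513), the closest relative of periostin, did not pass under any alternative run. Its level was 106112, 55292 and 132867 without doxycycline and 113428, 119110 and 135187 with it. Only Dox- 2 stood apart, below all the others. The means were 98090 ± 39405 and 122575 ± 11286, and the fit gave a log2 fold change of 0.41 with an SE of 0.33 (limma adjusted p = 0.82 unblocked and 0.52 blocked). Its 95% interval, -0.34 to 1.16, runs from a ratio of 0.790 to one of 2.23, so changes within that range were not excluded. By number the ratio was 1.07, 2.15 and 1.02.

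The balance of periostin to TGFBI, a ratio picked after the values had been seen and therefore not tested, was -3.05, -0.42 and -3.12 on the log2 scale without doxycycline and -0.39, 0.06 and -0.81 with it. Dox- 1 and Dox- 3 lay far below the rest, and Dox- 2 lay among the Dox+ libraries, since it had both the highest periostin and the lowest TGFBI of its group. The means were -2.20 ± 1.54 and -0.38 ± 0.43 (n = 3).

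Fibronectin held the largest share of these 8 genes. FN1 (ENSBTAG00000008300) stood at 5317410, 5535399 and 3866240 normalized counts without doxycycline and at 4113602, 4377302 and 4358034 with it. The Dox+ libraries were close together (coefficient of variation 3.43%, against 18.5% in Dox-), and Dox- 3 lay below all of them while Dox- 1 and Dox- 2 lay above. The means were 4906350 ± 907332 and 4282979 ± 147001, and the fit gave a log2 fold change of -0.18 with an SE of 0.52 (limma adjusted p = 0.96 unblocked and 0.89 blocked), with a 95% interval of -1.37 to 1.01. Limma without a trend of variance with level gave an SE of 0.21. As a share of all counts FN1 took 10.4%, 9.35% and 7.23% without doxycycline and 8.01%, 8.11% and 9.34% with it, a mean difference of -0.51 percentage points (exact permutation test, two-sided p = 0.6, where 0.1 is the smallest possible). The difference in share was 0.20 without Dox- 1, so its sign hung on 1 library. Of the counts of the 8 genes together, FN1 held between 91.6% and 93.4% in each library. The 8 genes together took 7.88% to 11.2% of all counts in Dox- and 8.69% to 10.1% in Dox+, so their sum overlapped between the groups.

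Dermatopontin was higher in each Dox+ library. DPT (ENSBTAG00000021211) had 3895, 5885 and 16904 normalized counts without doxycycline and 22715, 30817 and 35300 with it. The groups did not overlap, but Dox- 3 lay nearer to Dox+ 1 than to Dox- 2. At 8895 ± 7007 and 29611 ± 6379 it was 3.99-fold higher in the fit (log2 fold change 2.00, SE 0.47) and did not pass without the block (limma adjusted p = 0.072). With the block it passed (adjusted p = 0.0014), with pair differences of 5.83-fold, 5.24-fold and 2.09-fold in numbers 1, 2 and 3. Without Dox- 3 and without the block the log2 fold change was 2.60 (limma adjusted p = 0.0029). The authors' deposited table lists DPT at a log2 fold change of 1.93 with an adjusted p of 3.8e-11.

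**Figure D3:**
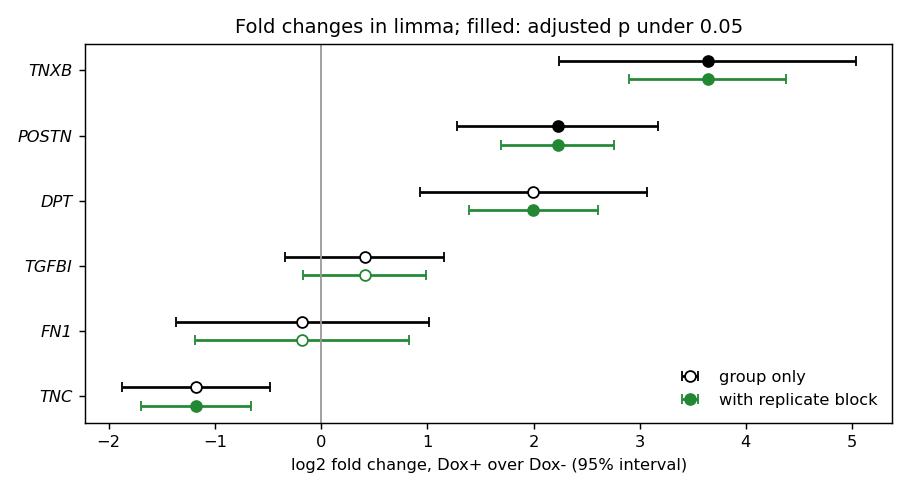
Log2 fold changes (Dox+ over Dox-, horizontal axis) with 95% intervals in limma for the 6 tested genes, with group as the only term (black) and with the replicate number as a block (green). Filled symbols have an adjusted p under 0.05: TNXB and POSTN in both fits, DPT and TNC only with the block, TGFBI and FN1 in neither.

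Of the tested genes, DPT and TNXB kept the order of the library numbers across the groups, and TNC, POSTN, TGFBI and FN1 did not. DPT ran from number 1 through 2 to 3 in both groups, and TNXB from 1 through 3 to 2 in both groups. For POSTN number 2 was the highest in both groups, while TNC was lowest in number 3 in both. The spread within a group was not equal on the 2 sides: the coefficient of variation of POSTN was 68.0% in Dox- and 25.9% in Dox+, that of DPT 78.8% and 21.5%, that of TGFBI 40.2% and 9.21% and that of TNC 30.7% and 20.5%. TNXB showed the opposite, with 46.2% in Dox- and 91.7% in Dox+. With 3 libraries a group, no test of these spreads was run. TNXB, POSTN, DPT and TGFBI were higher and TNC was lower in 3 of 3 same-numbered pairs, FN1 was lower in 2 of 3, and 38.5% of all tested genes kept 1 direction in all 3 pairs.

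**Figure D4:**
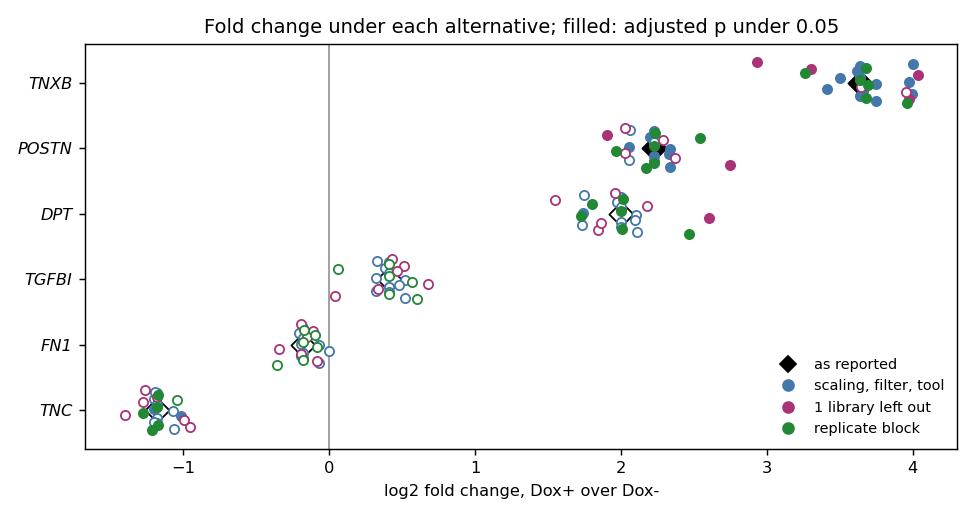
Log2 fold change (Dox+ over Dox-) of the 6 tested genes as reported (diamond) and under each of 24 alternatives (circles, spread vertically for legibility), coloured by kind of alternative and filled where the adjusted p was under 0.05. No gene changed sign (FN1 was at 0 under quantile normalization), and TNXB was called in 22, POSTN in 17, DPT in 8 and TNC in 7 of the 24, and TGFBI and FN1 in 0.

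The genes whose pattern over the 6 libraries was most like each of these were read as a description, by Pearson's r of log2(normalized count + 1) among 10877 genes with a symbol of their own and a mean of at least 50. For TNXB they were MMP23 (r = 0.995, n = 6), a matrix metalloproteinase, and C16H1orf21 (0.989), and for TNC they were KAT2A (0.994), a histone acetyltransferase, and ECM2 (0.994), a leucine-rich matrix protein. POSTN was matched most closely by MMP16 (0.991), a membrane-anchored metalloproteinase, and ISYNA1 (0.991), the enzyme that makes inositol phosphate from glucose phosphate. For DPT they were EHBP1L1 (0.992) and POLR1F (0.983), a subunit of RNA polymerase I, for TGFBI LAT (0.987), an adaptor of T cell signalling, and TGFBRAP1 (0.976), and for FN1 PPCS (0.984), an enzyme of coenzyme A synthesis, and TNS3 (0.969), a focal adhesion protein. The libraries share their grouping, and these values of r carry no test. ECM2 fell 2.27-fold (limma adjusted p = 0.047) and C16H1orf21 rose 2.35-fold (limma adjusted p = 0.014). The others did not pass (limma adjusted p from 0.12 for MMP23 to 0.92 for PPCS). All were picked by their pattern over these same libraries, so their group differences are no separate support. The call of ECM2 held only without Dox- 3 among the fits that leave out 1 library, and that of C16H1orf21 was lost without Dox+ 3 (adjusted p = 0.079).

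Neighbouring genes were looked up by gene order in RefSeq's ARS-UCD2.0 table, which is of a different build from that of the files. TNXB overlaps CYP21A2, a steroid hydroxylase gene, whose level was 0 in 4 libraries, 2.96 in Dox- 2 and 1.77 in Dox+ 2, so it was near 0 where TNXB was high. On one side of TNXB lies ATF6B, a gene of the unfolded protein response, at 1557 ± 92.2 in Dox- and 1273 ± 306 in Dox+ (limma adjusted p = 0.76). On the other side lies LOC107131209 at 1.84, 8.87 and 7.34 without doxycycline and 57.5, 39.7 and 4.65 with it (adjusted p = 0.59). ATIC, beside FN1, was 7153 ± 516 and 7989 ± 280 (limma adjusted p = 0.85), and MRPS14, beside TNN, was 744 ± 223 and 643 ± 84.6 (adjusted p = 0.90). TRPC4, a calcium channel gene beside POSTN, had 0 in each Dox- library and 20.3, 1.32 and 4.65 in the Dox+ libraries, under the filter. KIAA0040, between TNN and TNR, averaged 9.49 in Dox- and 5.09 in Dox+, and LECT2, beside TGFBI, had no reads.

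Cells meet fibronectin, tenascin-C, periostin and TGFBI through integrins and, for fibronectin, syndecans. Of 12 such receptor genes 10 were tested, 1 rose, 0 fell (4 at an unadjusted p under 0.05; edgeR called 1 higher and 0 lower, DESeq2 likewise) and 9 did not pass, with a median log2 fold change of -0.17 beside -0.0036 over all tested genes. ITGB8, the integrin chain that with ITGAV releases latent TGF-beta, had 123, 112 and 77.0 normalized counts without doxycycline and 403, 248 and 488 with it, a 3.55-fold rise (limma adjusted p = 0.025). All Dox+ libraries were higher, but the call was lost without Dox- 2 (0.071), Dox- 3 (0.083), Dox+ 1 (0.11) or Dox+ 3 (0.17). ITGB3, a chain of the vitronectin receptor that also binds fibronectin and tenascin-C, was 6769 ± 908 and 3736 ± 1292 (limma adjusted p = 0.14 unblocked and 0.013 blocked). SDC1, a syndecan, was 2812 ± 825 and 4297 ± 133 (adjusted p = 0.31). With the block 1 of the 10 was higher and 1 lower. For this list and those below, the shares over all tested genes were 2.52% called higher and 0.357% lower by limma. With the block they were 4.86% and 1.65%. An unadjusted p under 0.05 was found for 1395 of the 13180.

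All 18 genes of matrix partners and assembly were tested, and 1 rose, 0 fell (7 at an unadjusted p under 0.05; edgeR called 1 higher and 0 lower, and DESeq2 3 higher and 4 lower) and 17 did not pass. The median was -0.36. LTBP1, which anchors latent TGF-beta to fibronectin fibrils and microfibrils, went from 5003, 9445 and 7520 without doxycycline to 29603, 54978 and 38530 with it, a 5.61-fold rise (limma adjusted p = 0.0024), and kept its call with any 1 library left out. THBS1, thrombospondin-1, was 55885 ± 17297 and 20630 ± 9893 (limma adjusted p = 0.10 unblocked and 0.0048 blocked), and COL6A2, a chain of type VI collagen, was 389612 ± 71494 and 184437 ± 32214 (adjusted p = 0.11 unblocked and 0.035 blocked). With the block 2 of the 18 were higher and 3 lower.

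Among relatives that share a fibrinogen-like or a FAS1 domain, 12 of 14 were tested, 1 rose and 1 fell, with a median of -0.32. An unadjusted p under 0.05 was found for 6 of the 12. Without the block edgeR called 1 higher and 1 lower, and DESeq2 2 higher and 1 lower. The angiopoietin-like gene ANGPTL1 rose 2.73-fold, from 131, 118 and 133 without doxycycline to 426, 379 and 265 with it (limma adjusted p = 0.030). With each of the libraries left out in turn, and under quantile normalization, it did not pass (adjusted p from 0.056 to 0.15 in the former, 0.061 in the latter). ANGPTL4, an inhibitor of lipoprotein lipase, fell 3.46-fold, from 12968, 19224 and 16472 to 5480, 4810 and 3770 (limma adjusted p = 0.0026), and kept its call with any 1 library left out. ANGPT1, a ligand of the TIE2 receptor, was 34.8 ± 16.1 and 104 ± 12.1 (limma adjusted p = 0.15 unblocked and 0.029 blocked), and MFAP4, a microfibril protein, was 46.2 ± 24.2 and 126 ± 31.2 (adjusted p = 0.23 unblocked and 0.047 blocked). With the block 3 of the 12 were higher and 2 lower, the latter ANGPTL4 and ANGPTL7. ANGPTL7 was 323 ± 208 in Dox- and 109 ± 80.7 in Dox+ (limma adjusted p = 0.33 unblocked and 0.010 blocked).

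Both groups had received TGFb2. Of 13 genes that TGF-beta is known to induce all were tested, 0 rose, 1 fell (4 at an unadjusted p under 0.05; edgeR called 0 higher and 1 lower, and DESeq2 0 higher and 2 lower) and 12 did not pass, with a median of -0.52. ACTA2, smooth muscle actin, fell 4.18-fold, from 1247, 1238 and 1942 without doxycycline to 423, 309 and 312 with it (limma adjusted p = 0.0031, and no more than 0.031 with any 1 library left out). PMEPA1, a feedback inhibitor of TGF-beta signalling, was 13421 ± 5743 and 6235 ± 1317 (limma adjusted p = 0.14 unblocked and 0.022 blocked), and TGFB1 was 17573 ± 4386 and 12084 ± 1002 (adjusted p = 0.40). With the block 3 of the 13 were lower and 0 higher. POSTN and TGFBI, which are often counted among such genes, were kept out of this list.

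**Figure D5:**
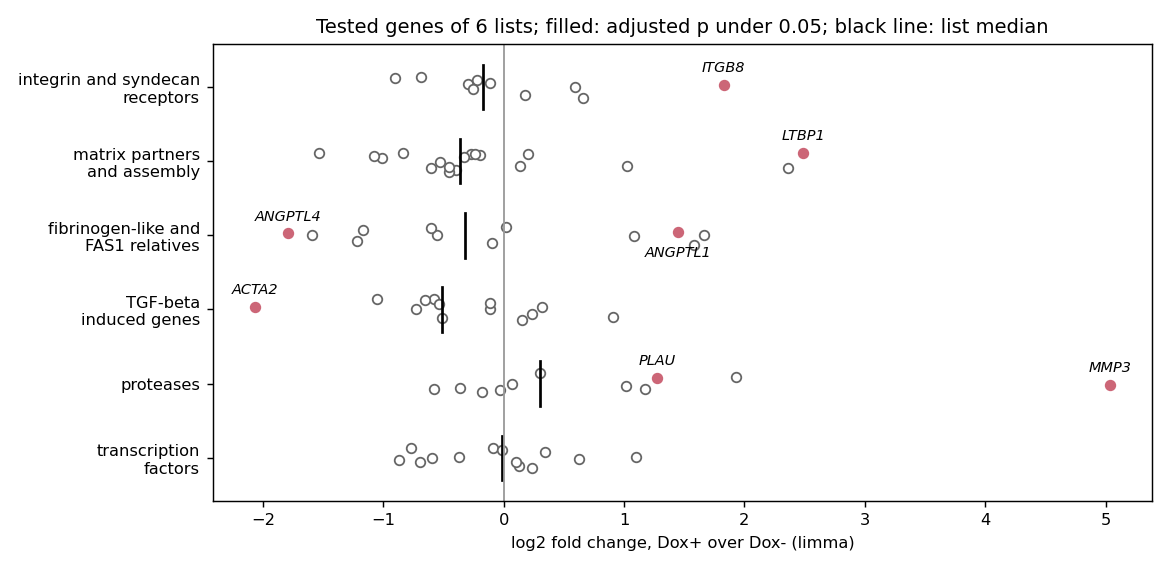
Log2 fold changes (Dox+ over Dox-, horizontal axis, limma) of the tested genes in 6 lists of receptors, partners, relatives, TGF-beta induced genes, proteases and transcription factors. Each circle is 1 gene, filled and named where the adjusted p was under 0.05, and black lines mark list medians, which lay between -0.52 and 0.30.

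Proteases that cut tenascin-C or fibronectin had 11 of 12 genes tested, 2 rose, 0 fell (5 at an unadjusted p under 0.05; edgeR called 2 higher and 0 lower, and DESeq2 3 higher and 0 lower) and 9 did not pass, with a median of 0.30. MMP3, stromelysin-1, rose 32.8-fold, from 1448, 214 and 177 without doxycycline to 29990, 6416 and 10178 with it (limma adjusted p = 0.011). Library number 1 was the highest in both groups, and the rise of MMP3 in the fit was 63.8-fold without Dox- 1 and 21.2-fold without Dox+ 1. The call was lost when Dox- 3 (adjusted p = 0.0503) or Dox+ 3 (adjusted p = 0.067) was left out. PLAU, the urokinase gene, stood at 3634, 2248 and 3003 without doxycycline and at 5727, 6769 and 8965 with it, a 2.42-fold rise (limma adjusted p = 0.024), and did not pass without Dox- 2 (0.089), Dox- 3 (0.075), Dox+ 2 (0.056) or Dox+ 3 (0.14). PLAT, tissue plasminogen activator, was 495 ± 117 and 1123 ± 294 (limma adjusted p = 0.060 unblocked and 0.013 blocked), and HTRA1, a serine protease, was 58392 ± 6376 and 39683 ± 9106 (adjusted p = 0.36). With the block 4 of the 11 were higher and 0 lower.

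Of transcription factors linked with tenascin-C or periostin, 13 of 14 were tested and limma called 0 (4 at an unadjusted p under 0.05; edgeR called 0 and DESeq2 1 higher), with a median of -0.02. SOX4 was 1362 ± 128 in Dox- and 3017 ± 1065 in Dox+ (limma adjusted p = 0.063 unblocked and 0.0079 blocked), and JUN, an AP-1 factor, was 2714 ± 587 and 1557 ± 723 (adjusted p = 0.32 unblocked and 0.048 blocked). With the block 1 of the 13 was higher and 3 were lower.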

How the data were processed

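Messenger RNA libraries of 6 cultures were analysed, 3 Dox- and 3 Dox+, grouped and numbered by their titles. The deposited signal table holds counts divided by 1 size factor per library by the authors. The authors' deposited comparison table gives p-values, a mean signal and, on the log2 scale, fold changes and their standard errors. The submitters' processing notes name FastQC 0.11.3, MultiQC 1.2, STAR 2.5.2b, Salmon, DESeq2, ARS-UCD1.2 and bosTau9 without roles; no source used here states the strand setting. Values were whole multiples of 1 step per library, so whole reads were recovered (100% of values above 0 within 0.01 read).

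Groups were compared with limma 3.58.1 under R 4.3.3 (trend, two-sided) on log2(value + 1), group only, for genes with a mean of at least 10. On the recovered reads, edgeR 4.0.16 (quasi-likelihood, TMM) called 343 genes and DESeq2 1.42.0 called 701, against 379. Same-numbered libraries deviated together from their group means (r = 0.65, 0.44 and 0.21 for numbers 1, 2 and 3), and each passed the limit of 0.1 set for taking the numbers as pairs. The 6 differently numbered pairs ran from -0.59 to 0.18. The highest, Dox- 3 with Dox+ 2, was close to the value of number 3. It also passed the limit, so the limit alone does not single out pairs. The labels do not say that a number marks a knee, so the pairing comes from the data. Pairs of libraries within a group differed beyond sampling noise (chi-square per degree of freedom 54.8 to 414), so each counted as 1 replicate. Scripts were tested on simulated data.

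The genes and lists were chosen with earlier results of these data known. Named genes are the 8, CREB5, and the called members of each list with up to 2 further ones of smallest p. ANGPTL7 was named as well. Others are the 2 genes most like each tested gene, and nearest neighbours by RefSeq gene order (all 8 matched by gene ID). Alternatives covered pseudocount, filter, scaling, tool, the replicate block and leaving out libraries. RefSeq sequences were not used here, and the summed level of 1 cell type list is not reported here.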

Additional observations from a re-analysis of the deposited data

How the results depend on the processing

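Under 24 alternatives each of the 6 tested genes kept its sign, except that FN1, the top gene of every library, was at 0 under quantile normalization. Scaling to equal totals, with or without FN1 and PRG4, shifted the median of all genes by 0.11 on the log2 scale, and no call of the 6 changed. TNC passed in limma under quantile normalization (-1.02, adjusted p = 0.042), in DESeq2 (-1.20, 0.0013), and with the replicate block in limma (-1.18, 0.012), edgeR (-1.17, 0.013) and DESeq2 (-1.18, 2.1e-07). DPT passed in DESeq2 (1.74, 0.0048) and with the block in limma (2.00, 0.0014), edgeR (2.01, 0.0037) and DESeq2 (2.01, 2.0e-10). POSTN failed in limma without trend (2.23, 0.080) and in edgeR with TMM (2.06, 0.055) or DESeq2's size factors (2.05, 0.057). With 1 library left out, log2 fold changes ran from -1.40 to -0.95 for TNC, 2.93 to 4.03 for TNXB, 1.90 to 2.74 for POSTN and 1.55 to 2.60 for DPT. With the block and number 1, 2 or 3 left out, which leaves 1 residual degree of freedom, TNC was at -1.28, -1.04 (adjusted p = 0.070) and -1.22 and DPT at 1.73, 1.80 and 2.47. Genes called higher numbered 332, and 542 in DESeq2, 640, 591 and 743 with the block in limma, edgeR and DESeq2, 138 to 364 with 1 library left out, and 576, 961 and 911 with the block and number 1, 2 or 3 left out. Genes called lower numbered 47, and 23 in limma without trend, 159 in DESeq2, 218, 190 and 306 with the block, 9 to 72 with 1 library left out, and 186, 274 and 538 with the block and 1 number left out. All 379 calls without the block were among the 858 with it. For the lists, 94 of 432 recomputed counts and medians moved beyond their margin. TGFBRAP1 reversed without Dox- 2 (-0.020, with a range of -0.020 to 0.38 over libraries left out) and with the block without number 2 (-0.023), and MRPS14 reversed without Dox- 3 (0.054, range -0.32 to 0.054). Depth limits TNN and TNR, whose reads were near or at 0.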
